A study of Mus musculus with 12 samples.

Results

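Superoxide dismutases and peroxide-removing enzymes are described here through 9 genes: Sod1, Sod2, Sod3, Cat, Gpx1, Gpx4, Prdx3, Txn2 and Txnrd2. They were taken by gene symbol from 19505 genes measured on mouse expression arrays, and each was represented by a single probe set. Sod3 was chosen by its measured values, namely a large difference between the lines compared, so that difference is given as a description and was not tested. The other 8 were listed for their function, with earlier results of these data known.

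The samples were lung metastases formed by NMuMG-ErbB2 cells, a mouse mammary epithelial line carrying the ErbB2 oncogene, after the cells were injected into mice, and grown in culture as explants. All 4 groups therefore share ErbB2. The PGC-1alpha groups came from cells overexpressing PGC-1alpha, and the control groups from cells labelled VC (control). Within each line, 3 samples received phenformin, a biguanide inhibitor of respiratory complex I, at 100 uM over 4 days, and 3 received water (dh20). The sources used here do not give the promoter driving PGC-1alpha, the number of clones or the number of mice, so the p-values describe only the spread among these samples, and part or all of it may be technical. A line difference cannot be told apart from any other difference between the metastases of both lines.

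Superoxide leaks from the respiratory chain and is turned into hydrogen peroxide by superoxide dismutases: Sod1 encodes the copper-zinc enzyme of the cytosol, Sod2 the manganese enzyme of the mitochondrial matrix, and Sod3 a secreted copper-zinc enzyme that binds the cell surface and matrix. Peroxide is then removed by catalase (Cat) in peroxisomes, by glutathione peroxidases, and by peroxiredoxins recharged by thioredoxins. PGC-1alpha, encoded by Ppargc1a, is a coactivator of mitochondrial biogenesis that is also known, in other cell types, for raising genes of mitochondrial antioxidant enzymes. Comparing the lines asks whether such genes were higher with PGC-1alpha in these explants, and comparing the treatments asks whether they moved when complex I was inhibited.

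Values are log2 expression values as deposited, and the log base was inferred from their range. The medians of the 12 arrays lay between 6.32 and 6.43. The background limit of an array, set at the 95th percentile of its negative controls, lay between 7.72 and 7.99, and all members but Sod3 exceeded it in all 12 arrays. Ppargc1a followed the labels, with 8.06 to 8.37 in the 6 PGC-1alpha arrays and 6.97 to 7.29 in the 6 control-line arrays, where it did not exceed the limit. It was at least 1.29-fold higher in water (1.03 ± 0.11, limma adjusted p = 0.000201) and at least 1.26-fold higher in phenformin (1.13 ± 0.11, adjusted p = 5.9e-05). Of the epithelial markers, Cdh1, Krt8, Krt18 and Krt19 exceeded the limit in all 12 arrays, and Epcam, Cldn3, Cldn4 and Cldn7 in none. No array exceeded it for any of 8 endothelial, 6 leukocyte and 7 lung epithelial markers measured. Control-line water replicate 2 lay far from the other arrays on principal component 2, with a score of 33.3 where the next was 9.16. On principal component 3, control-line water replicate 3 lay lowest at -28.1, where the next was -16.0.

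Sod3 was far lower in PGC-1alpha explants than in control-line explants, in water and in phenformin. Its log2 value in control-line explants was 11.45, 10.80 and 10.86 in water and 11.72, 11.85 and 11.80 in phenformin. In PGC-1alpha explants it was 7.81, 8.32 and 8.89 in water and 9.002, 9.33 and 9.24 in phenformin. Every control-line array lay above every PGC-1alpha array, and the PGC-1alpha water array at 7.81 was the only array that did not exceed its background limit. The line difference (PGC-1alpha minus control) was -2.70 in water and -2.60 in phenformin. These correspond to 6.49-fold and 6.06-fold lower levels. Because Sod3 was chosen for this difference, no p-value is given for it.

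**Figure D1:**
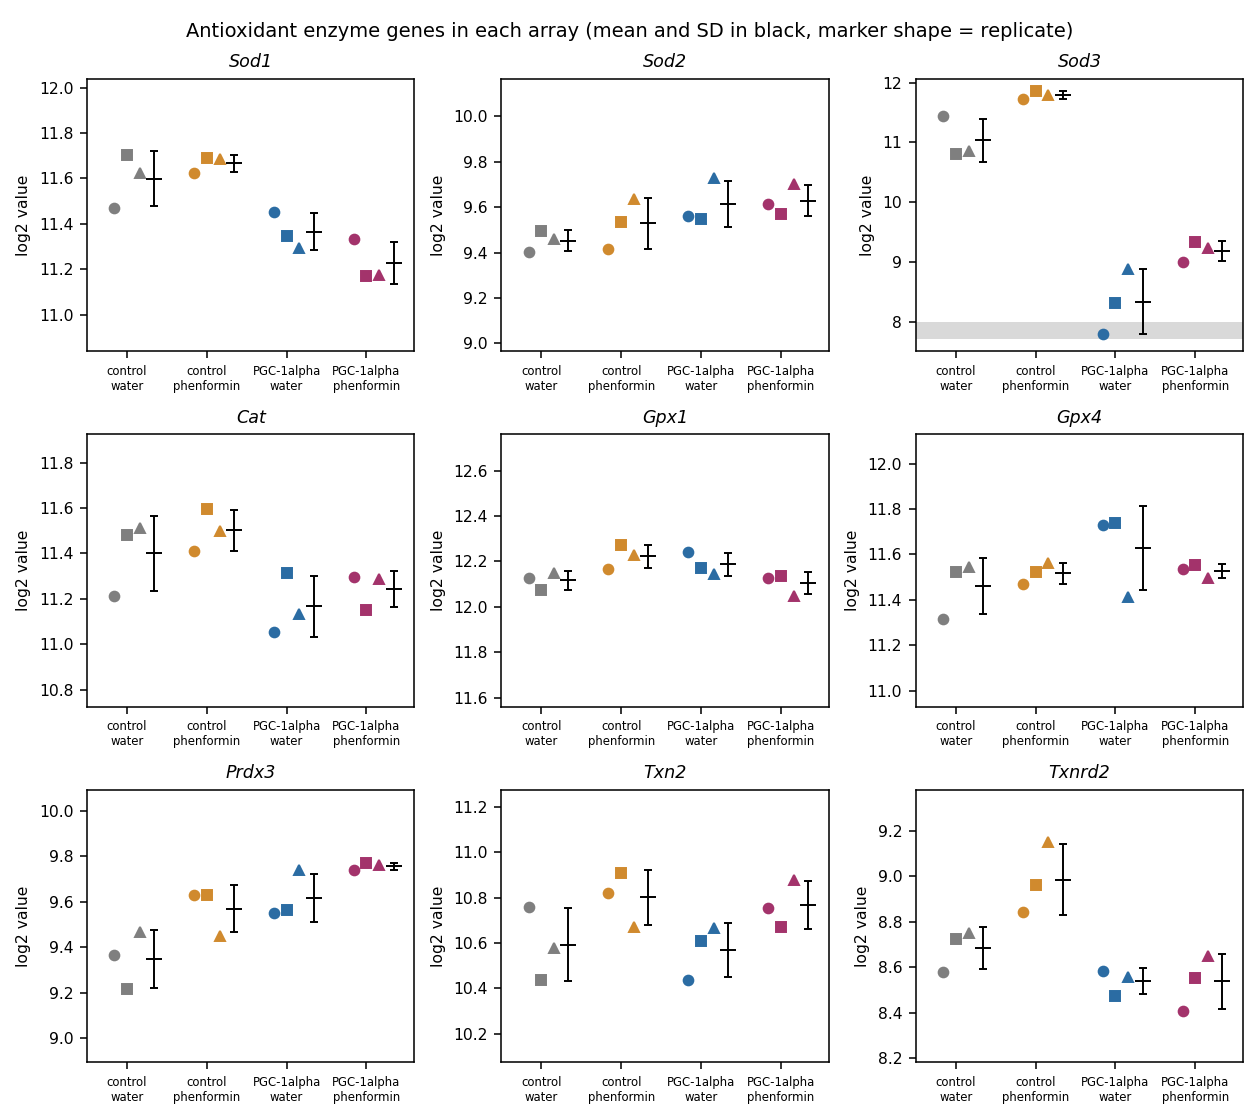
Log2 expression value of each member gene (y axis) in the 4 groups (x axis), with 1 point per array, marker shape for the replicate number, and the mean ± SD of 3 arrays in black. The Sod3 panel has a wider axis and a grey band for the background limits of the 12 arrays; its PGC-1alpha arrays lie between 7.81 and 9.33 and its control-line arrays between 10.80 and 11.85.

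Sod3 was also higher in phenformin than in water in each line, by 0.75 ± 0.23 (limma standard error) in control-line explants and 0.85 ± 0.23 in PGC-1alpha explants, or 1.68-fold and 1.80-fold. In each line the 3 phenformin arrays lay above the 3 water arrays. Neither difference passed the threshold of 0.05 after adjustment over all genes (limma adjusted p = 0.12 and 0.169), and the responses of the lines did not differ beyond their error (0.10 ± 0.32, interval -0.59 to 0.79, adjusted p = 0.978). The water arrays were spread widely, with an SD of 0.36 in control-line and 0.54 in PGC-1alpha explants against 0.07 and 0.17 in phenformin. PGC-1alpha water replicate 3, at 8.89, was closest to the phenformin arrays of its line, and without it the difference in PGC-1alpha explants was 1.13 with an adjusted p of 0.0373 by limma. Without PGC-1alpha water replicate 1 it was 0.58 (adjusted p = 0.461). When only genes above the background limit in at least 3 arrays were tested, the adjusted p was 0.0489 in control-line and 0.0492 in PGC-1alpha explants. These responses and the difference between them use the same water and phenformin arrays as the line differences for which Sod3 was chosen.

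From highest to lowest, Sod3 stood in control-line explants in phenformin, control-line explants in water, PGC-1alpha explants in phenformin and PGC-1alpha explants in water, and no neighbouring groups in this order overlapped. Fibroblasts and vascular mural cells are known sources of Sod3 in tissue. Of 11 measured markers of these cells, 10 exceeded the background limit in no array, and Col1a1 did so in 1. Their mean log2 level ranged from 5.54 to 5.89 in control-line explants in water and 5.45 to 5.64 in control-line explants in phenformin. In PGC-1alpha explants it was 5.59 to 5.76 in water and 5.51 to 5.65 in phenformin. No marker of this list passed in any comparison. These means lay under the background limit, so the levels and the lack of a call say little. Of all cell type markers, the epithelial keratin gene Krt19 was the only one that passed: it was higher in phenformin in control-line explants (0.70 ± 0.15, adjusted p = 0.0405), and its difference in PGC-1alpha explants was 0.56 ± 0.15 (adjusted p = 0.158). Its part in the Sod3 values was not tested. In a bulk sample, fewer cells of a type and less RNA per cell cannot be told apart.

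The genes whose values most resembled those of Sod3 over the 12 arrays, among 7506 genes above the background limit in at least 3 arrays, were Lgals3bp, Spns2 and Ifitm3. Lgals3bp, a secreted glycoprotein that binds galectins, had a Pearson r of 0.990 with Sod3 (Spearman rho 0.986). Since the lines form separate clusters, a line difference alone can give a high r over the 12 arrays. Within the 6 PGC-1alpha arrays r was 0.988 for Lgals3bp, 0.924 for the sphingosine-1-phosphate transporter Spns2 and 0.854 for Ifitm3, an interferon-induced membrane protein. Within the 6 control-line arrays it was 0.967, 0.889 and 0.957. The mean log2 value of Lgals3bp was 11.36 in control-line explants in water, 11.62 in control-line explants in phenformin, 10.46 in PGC-1alpha explants in water and 10.86 in PGC-1alpha explants in phenformin, the same order of groups as for Sod3. The most opposite genes were Lsr, a lipoprotein receptor of tricellular junctions (r = -0.976), Gimd1 (r = -0.971) and Zfp825 (r = -0.953). Within the 6 control-line arrays r was -0.81 for Lsr, -0.79 for Gimd1 and -0.29 for Zfp825, and within the 6 PGC-1alpha arrays it was -0.80, -0.87 and -0.86. The control-line means of Zfp825 were 9.30 in water and 9.31 in phenformin. All arrays share the line and treatment groups, so these values are descriptions of 12 arrays.

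In water, none of the other 8 members differed between the lines past the threshold, and 8 of 8 lay within 0.27 of 0 on the log2 scale. Of all genes, 2% were called in this comparison. The median difference of the 8 was 0.02, against 0.00 over all genes. Over genes above the background limit in at least 3 arrays it was 0.02. Prdx3, the mitochondrial peroxiredoxin, had the largest positive difference. Its log2 value was 9.55, 9.57 and 9.74 in PGC-1alpha explants in water and 9.37, 9.21 and 9.47 in control-line explants. The PGC-1alpha arrays all lay above the control-line arrays, by 0.27 ± 0.11 on average (interval 0.04 to 0.50, limma adjusted p = 0.322). In phenformin its values were 9.74, 9.77 and 9.76 against 9.63, 9.63 and 9.45, again without overlap (0.19 ± 0.11, adjusted p = 0.434).

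The matrix superoxide dismutase gene Sod2 was between 9.55 and 9.73 in PGC-1alpha explants in water and between 9.40 and 9.49 in control-line explants. These ranges did not overlap, and the difference of 0.16 ± 0.10 did not pass (adjusted p = 0.621). In phenformin, at 9.57 to 9.70 against 9.41 to 9.64, the groups overlapped. The limma interval of the Sod2 difference in water ran from -0.06 to 0.38 and reflects only the spread among these samples. Under other processing or without single arrays the difference itself ran from 0.10 to 0.25. For Txn2, the mitochondrial thioredoxin that recharges Prdx3, the difference was -0.02 in water (interval -0.28 to 0.23) and -0.03 in phenformin (-0.29 to 0.22). Its water values spanned 10.44 to 10.76 in control-line and 10.44 to 10.67 in PGC-1alpha explants, which overlapped.

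In phenformin, Sod1 and Txnrd2 were lower in PGC-1alpha than in control-line explants, and the other 6 tested members did not pass. These 2 of 8 members compare with 3.16% of all genes called lower in this comparison (4.01% in either direction). All genes include many at background, where calls are rarer. Among the 7640 genes above the background limit in at least 3 arrays, 1021 were called, 154 of them higher. The same 2 members passed there. Sod1 stood at 11.33, 11.17 and 11.18 in PGC-1alpha explants and at 11.62, 11.69 and 11.68 in control-line explants, 1.36-fold lower (-0.44 ± 0.10, limma adjusted p = 0.0302). Txnrd2, the mitochondrial thioredoxin reductase and a selenoprotein, stood at 8.41, 8.55 and 8.65 against 8.84, 8.96 and 9.15, 1.36-fold lower (-0.45 ± 0.11, adjusted p = 0.0404). For both genes all PGC-1alpha arrays lay below all control-line arrays. Both calls sat close to the threshold: when each of the 12 arrays was left out in turn, Sod1 did not pass without any 1 of the 6 phenformin arrays (adjusted p up to 0.128), and Txnrd2 did not pass without any 1 of the 6 PGC-1alpha arrays or control-line phenformin replicates 2 or 3 (up to 0.18). A further quantile normalization gave -0.33 for Sod1 (adjusted p = 0.0944) and -0.36 for Txnrd2 (0.0972).

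In water the same difference was smaller for Sod1, at 11.45, 11.35 and 11.29 in PGC-1alpha explants against 11.47, 11.70 and 11.62. The arrays did not overlap, and -0.23 ± 0.10 did not pass (adjusted p = 0.39). For Txnrd2 it was -0.14 ± 0.11 with overlapping arrays (adjusted p = 0.711). The change of the line difference with phenformin was -0.20 ± 0.15 for Sod1 (adjusted p = 0.93) and -0.30 ± 0.16 for Txnrd2 (adjusted p = 0.928), so the line differences in water and phenformin were not shown to differ.

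**Figure D2:**
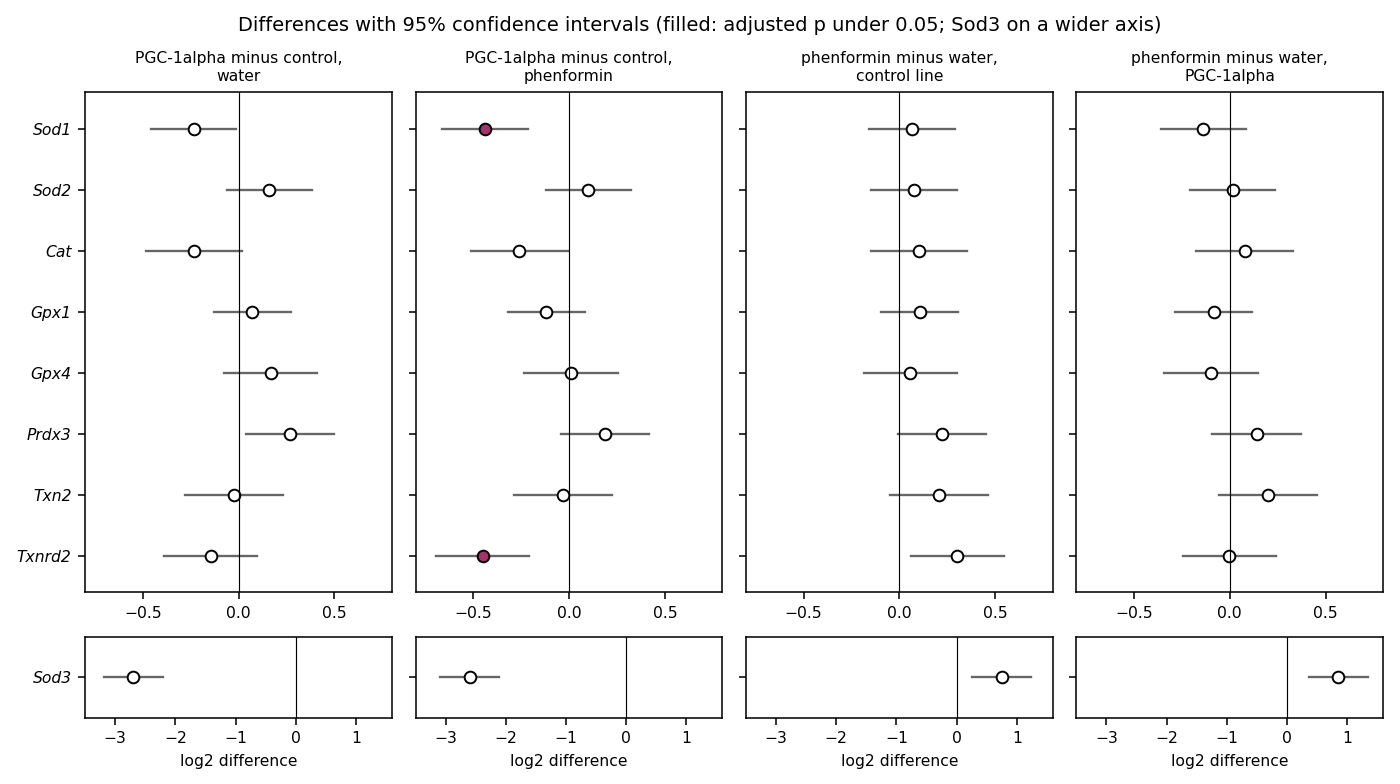
Log2 differences (x axis) of the members (y axis) in 4 comparisons, with 95% confidence intervals from limma; filled points passed an adjusted p of 0.05. Sod1 (-0.44) and Txnrd2 (-0.45) are the filled points, both in the comparison of the lines in phenformin. Sod3, on an axis of its own below, was not tested between the lines. Its intervals there make no allowance for its choice by that difference.

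The sequences before the transcription starts of Sod1 and Txnrd2, the members that passed, and of Prdx3, the tested member with the largest positive line difference, are shown for context. They are the 250 bases upstream of the RefSeq start in GRCm38.p6, on the coding strand, with capitals marking matches to 6 motifs searched on both strands, where matches may overlap. Of the 9 members, 8 had an entry in the sequence source. Sod3 had none, so its upstream sequence was not searched.
Sod1, chr16:90220512-90220761, plus strand: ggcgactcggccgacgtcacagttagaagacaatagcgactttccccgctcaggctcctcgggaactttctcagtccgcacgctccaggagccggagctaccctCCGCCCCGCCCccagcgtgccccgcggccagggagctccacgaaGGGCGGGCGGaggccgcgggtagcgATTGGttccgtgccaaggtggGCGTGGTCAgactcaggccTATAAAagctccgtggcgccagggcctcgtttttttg
Txnrd2, chr16:18426167-18426416, plus strand: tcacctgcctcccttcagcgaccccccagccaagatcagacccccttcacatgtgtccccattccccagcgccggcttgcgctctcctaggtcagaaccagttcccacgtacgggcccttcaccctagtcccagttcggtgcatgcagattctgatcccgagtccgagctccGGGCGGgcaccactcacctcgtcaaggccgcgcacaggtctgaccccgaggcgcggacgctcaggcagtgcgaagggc
Prdx3, chr19:60874539-60874788, minus strand: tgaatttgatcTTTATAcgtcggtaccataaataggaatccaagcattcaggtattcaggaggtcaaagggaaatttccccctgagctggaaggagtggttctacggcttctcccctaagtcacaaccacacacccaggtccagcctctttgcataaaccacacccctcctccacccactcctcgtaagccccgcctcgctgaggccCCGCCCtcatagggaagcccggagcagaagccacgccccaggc

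The motifs were the antioxidant response element TGACNNNGC, bound by NRF2 and found in 10.2% of 32851 promoter windows of this length, the NRF1 site (3.74%), the ERR half-site AAGGTCA (4.08%), the GC box GGGCGG (32.7%), the CCAAT box CCAAT (33.8%) and the TATA box TATAAA (12.4%). Sod1 held 4 GC boxes, 1 CCAAT box, 1 TATA box beginning at position -37 from the start and 1 match to the antioxidant response element beginning at -56. Txnrd2 held 1 GC box, and Prdx3 held 1 GC box and 1 match to the TATA box letters beginning at -239. Neither the NRF1 nor the ERR letters were in these 3 windows. These matches describe the windows and say nothing of binding.

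Among the remaining members, neither Cat nor the glutathione peroxidase genes Gpx1 and Gpx4 passed between the lines. Cat stood at 11.05, 11.32 and 11.13 in PGC-1alpha explants in water against 11.21, 11.48 and 11.51 in control-line explants, with overlap (-0.23 ± 0.12, adjusted p = 0.469). In phenformin it was 11.29, 11.15 and 11.29 against 11.41, 11.60 and 11.50 without overlap (-0.26 ± 0.12, adjusted p = 0.293). Of the 6 control-line arrays of Cat, 5 lay above the highest PGC-1alpha array, at 11.32. Gpx1, the cytosolic and mitochondrial glutathione peroxidase, differed by 0.07 ± 0.09 in water and -0.12 ± 0.09 in phenformin. Gpx4, which reduces lipid peroxides in membranes, differed by 0.17 ± 0.11 and 0.01 ± 0.11. Gpx4 values ranged from 11.41 to 11.74 in PGC-1alpha explants in water and from 11.32 to 11.54 in control-line explants, which overlapped. Counting arrays that did not overlap, 1 member (Sod1) lay lower and 2 (Prdx3 and Sod2) higher in PGC-1alpha explants in water, beside 7.61% of all genes lower and 6.53% higher. In phenformin 4 members (Sod1, Cat, Gpx1 and Txnrd2) lay lower and 1 (Prdx3) higher, beside 16.4% and 11.1% of all genes. The median of the 8 members in phenformin was -0.08, against -0.01 over all genes. Over genes above the background limit in at least 3 arrays it was -0.06. After a further quantile normalization 4 of the 8 members lay below 0.

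**Figure D3:**
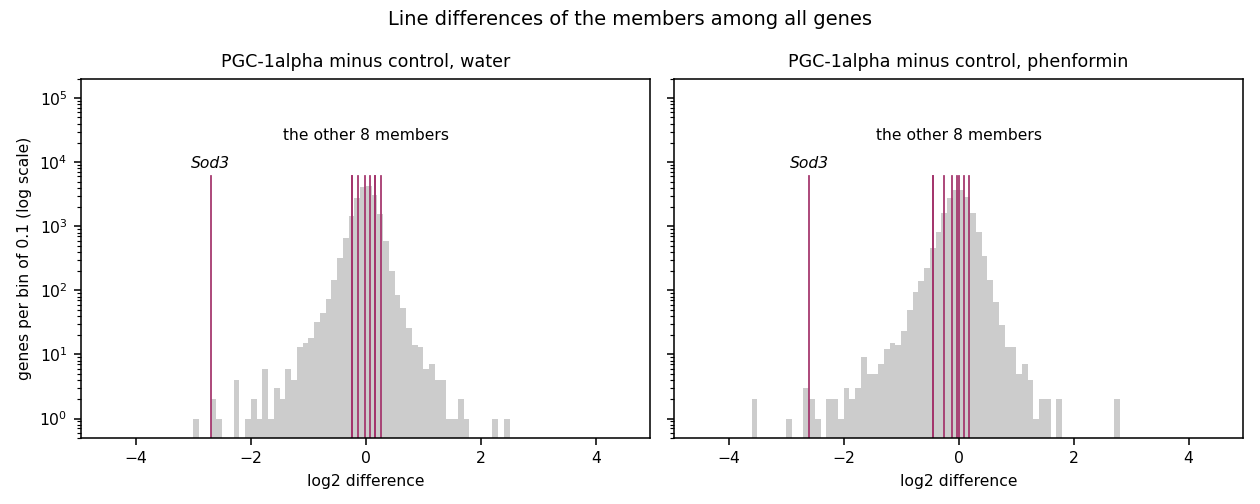
Number of genes (y axis, log scale) by log2 difference between PGC-1alpha and control-line explants (x axis, bins of 0.1) in water and in phenformin, with vertical lines at the 9 members. Sod3 lies at -2.70 and -2.60, and the other 8 lie between -0.23 and 0.27 in water and between -0.45 and 0.19 in phenformin.

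Phenformin changed no member past the threshold in control-line explants, where 1.2% of all genes were called. All 9 differences were above 0, from 0.06 for Gpx4 to 0.75 for Sod3, with a median of 0.11 against -0.01 over all genes. Over genes above the background limit in at least 3 arrays the median was 0.08, close to that of the members. The shared sign of the members also depended on the scaling. After a further quantile normalization 4 of the 9 (Sod3, Prdx3, Txn2 and Txnrd2) were above 0 and 5 below. With the control probe set covariate 8 were above 0. After Sod3, Txnrd2 had the largest difference: its phenformin values, from 8.84 to 9.15, lay above its water values of 8.58, 8.72 and 8.75 (0.30 ± 0.11, adjusted p = 0.194). Prdx3 (0.22 ± 0.11, adjusted p = 0.321) and Txn2 (0.21 ± 0.12, adjusted p = 0.4) had overlapping arrays. Gpx1 stood at 12.13, 12.07 and 12.15 in water and 12.17, 12.27 and 12.23 in phenformin without overlap, a difference of 0.11 ± 0.09 that did not pass (adjusted p = 0.608). Thus 3 of 9 members, Sod3, Gpx1 and Txnrd2, lay higher without overlap, beside 11.5% of all genes. The negative control probe sets moved with the treatment: their medians were at least 5.09 in the 6 phenformin arrays and at most 5.02 in the 6 water arrays. With the gap between an array's positive and negative controls as a covariate no member passed, and Sod3 differed by 1.13 ± 0.42 in control-line explants. This gap was at least 4.11 in the 6 water arrays and at most 4.08 in the 6 phenformin arrays. The covariate thus followed the treatment, and this fit can hardly tell them apart.

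In PGC-1alpha explants phenformin likewise changed no member past the threshold, beside 0.195% of all genes. The 9 differences ran from -0.14 for Sod1 to 0.85 for Sod3, 5 above and 4 below 0, with a median of 0.02 against -0.02 over all genes. Over genes above the background limit in at least 3 arrays the median was -0.00036. Txn2, at 10.76, 10.67 and 10.88 in phenformin and 10.44, 10.61 and 10.67 in water, did not overlap (0.20 ± 0.12, adjusted p = 0.576). Prdx3 did not overlap either, at 9.74 to 9.77 against 9.55 to 9.74 (0.14 ± 0.11, adjusted p = 0.683). Txnrd2 differed by -0.00 ± 0.11, with an interval from -0.24 to 0.24. Without overlap, 3 members (Sod3, Prdx3 and Txn2) lay higher and 1 (Gpx1) lower, beside 8.93% and 10.7% of all genes.

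No member's response to phenformin differed between the lines past the threshold, and neither did that of any other gene (0%) by limma, with 1018 genes and 0 members at an unadjusted p under 0.05. The difference of responses (PGC-1alpha minus control line) was below 0 for 8 of the 9 members, and ran from -0.30 for Txnrd2 to 0.10 for Sod3. Its median was -0.08 against -0.03 over all genes. Over genes above the background limit in at least 3 arrays the median was -0.09. After a further quantile normalization 4 of the 9 members were below 0. All comparisons share arrays, so these values are not separate pieces of evidence.

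Other genes of superoxide and peroxide metabolism were read from 6 lists, chosen with earlier results known. Among genes that make superoxide and peroxide, 15 of 19 were measured, and Xdh, encoding xanthine dehydrogenase, whose oxidase form releases superoxide and peroxide, was lower in PGC-1alpha explants in both treatments while the other 14 did not pass in any comparison. Xdh stood between 8.16 and 8.59 in control-line explants in water and between 8.75 and 9.16 in phenformin, and in PGC-1alpha explants between 6.73 and 7.52, where no array exceeded the background limit. It was at least 1.47-fold lower in water (-1.34 ± 0.19, adjusted p = 0.00106) and at least 1.96-fold lower in phenformin (-1.55 ± 0.19, adjusted p = 0.000238), where each bound sets the control-line mean against the background limit. Of the 15 measured genes, 11 exceeded the limit in no array and 2 in all 12. The 11 include the NADPH oxidase genes Nox1, Nox3, Nox4, Cybb and Cyba, and their lack of a call says little.

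Of the other glutathione peroxidases, 6 of 6 were measured and Gpx8, an enzyme of the endoplasmic reticulum, was the only one above the background limit in all 12 arrays, while the other 5 exceeded it in none. In phenformin Gpx8 stood at 8.06 to 8.21 in PGC-1alpha explants and 8.61 to 8.71 in control-line explants, 1.43-fold lower (-0.52 ± 0.11, adjusted p = 0.0118). The call did not hold without PGC-1alpha phenformin replicate 3 (adjusted p = 0.0615) or control-line phenformin replicate 2 (0.0674). In water it did not pass. Of 5 genes that carry copper to superoxide dismutases or into the cell, the copper transporter gene Slc31a2 was 1.39-fold lower in PGC-1alpha explants in phenformin (-0.47 ± 0.12, adjusted p = 0.0442), while the other 4 did not pass in any comparison. They include Ccs, the copper chaperone of Sod1, and Atox1 and Atp7a, which hand copper to the secretory pathway in which Sod3 is made. Between the lines in water Atox1 differed by 0.14 ± 0.15 and Atp7a by -0.04 ± 0.21. Atp7a exceeded the background limit only in PGC-1alpha water replicate 2 (7.89) and control-line water replicate 3 (8.19), so its differences say little. The part of these genes in the Sod3 values was not tested. The Slc31a2 call did not hold without PGC-1alpha water replicates 1 or 2 or any 1 of the 6 phenformin arrays (adjusted p up to 0.196), nor after a further quantile normalization (-0.37, adjusted p = 0.112) or with the control probe set covariate (adjusted p = 0.0855).

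Of the thioredoxin and glutaredoxin list, 13 of 15 genes were measured and only Txnip, whose protein binds and inhibits thioredoxin, passed in any comparison. It fell in phenformin from 9.23 to 9.73 down to 8.42 to 8.58 in control-line explants (-0.97 ± 0.16, adjusted p = 0.0148) and from 8.95 to 9.48 down to 7.42 to 7.80 in PGC-1alpha explants (-1.60 ± 0.16, adjusted p = 0.000866). The PGC-1alpha phenformin arrays did not exceed the background limit, so that fall was at least 2.50-fold. In phenformin Txnip was also lower in PGC-1alpha than in control-line explants, by at least 1.49-fold (-0.85 ± 0.16, adjusted p = 0.00867), and this call did not hold without PGC-1alpha phenformin replicate 1 (adjusted p = 0.0545). The fall in control-line explants did not hold without control-line water replicate 2 or any 1 of the 3 control-line phenformin arrays (adjusted p up to 0.0698). With the control probe set covariate, which followed the treatment, the falls were -1.14 ± 0.31 in control-line and -1.73 ± 0.26 in PGC-1alpha explants. The falls were not smaller, but their errors were larger. Neither passed (limma adjusted p = 0.374 in control-line and 0.172 in PGC-1alpha explants). None of 3 measured peroxiredoxins and none of 6 selenoprotein synthesis genes passed in any comparison. Of these, 1 peroxiredoxin and 2 selenoprotein synthesis genes exceeded the background limit in no array. Among the selenoprotein synthesis genes the smallest limma adjusted p was 0.0653, for Eefsec, the elongation factor that delivers selenocysteine. This was for phenformin against water in control-line explants (0.55 ± 0.13).

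**Figure D4:**
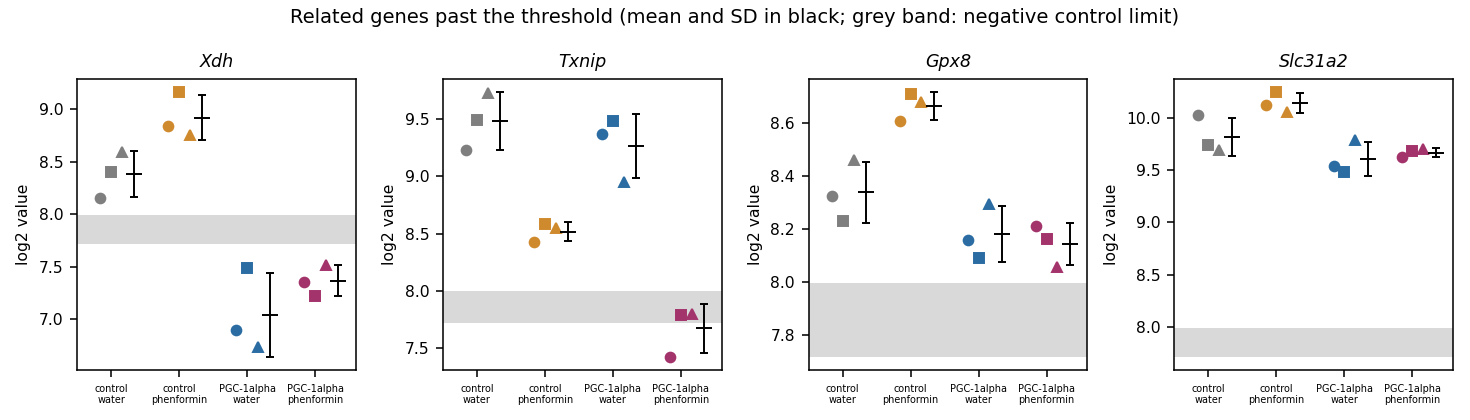
Log2 expression value (y axis) of Xdh, Txnip, Gpx8 and Slc31a2 in the 4 groups (x axis), with 1 point per array, the mean ± SD of 3 arrays in black and the background limits as a grey band. The PGC-1alpha arrays of Xdh lie between 6.73 and 7.52, below the band, and the control-line arrays lie between 8.16 and 9.16.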

How the data were processed

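The authors deposited 1 value per probe set and array for 12 samples, on a log2 scale inferred from values between 1.50 and 13.65; the sources used here give neither normalization nor summarisation. Another deposited table was left out, since its 12 columns carry names found in no label. Sample titles gave the groups and replicate numbers. Symbols came from the platform annotation, and 19572 of 19572 named probe sets matched RefSeq (GRCm38.p6) by Entrez identifier. For genes with several probe sets the brightest was kept, leaving 19505 genes. The fit used limma 3.58.1 (R 4.3.3) with 4 group means and no replicate block (8 residual degrees of freedom). Tests were two-sided, and p-values of each of 5 comparisons were adjusted over all genes (Benjamini-Hochberg) at a threshold of 0.05. The number of arrays limits the precision. A fold is 2 to the power of the log2 difference. If all arrays of the dimmer group were at or under the 95th percentile of their negative controls, each was raised to that percentile where it was lower, and the fold is a bound.

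Members and lists were chosen with earlier results of these data known. Named were the 9 members, Ppargc1a, up to 4 genes of each list past the threshold per comparison or the one with the smallest p, and the 3 genes most and 3 least correlated with Sod3, without predicted symbols. Cell type markers, NADPH oxidases, Ccs, Atp7a and Col1a1 were named as parts of their lists after their values were seen. Alternatives were quantile normalization, a filter on level, the replicate block, a control probe set covariate, a trended robust variance, the dimmest probe set, and leaving out each array. Same-numbered arrays deviated together with correlations between -0.37 and 0.13, so the numbers were not taken to pair samples.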

Additional observations from a re-analysis of the deposited data

Results flagged for a closer look

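The Gpx1 arrays lay on opposite sides of their water arrays in the lines under phenformin, though neither difference passed. All 3 control-line phenformin arrays lay above the 3 water arrays, and all 3 PGC-1alpha phenformin arrays lay below theirs. The differences were 0.11 ± 0.09 and -0.08 ± 0.09, and the difference between them was -0.19 ± 0.13 (limma adjusted p = 0.928), so it did not pass its own test. After a further quantile normalization the control-line difference was -0.00025 and the PGC-1alpha difference -0.11, and the directions were no longer opposite.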

How the results depend on the processing

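Of 774 tested values of the 9 members under 18 alternatives, 751 kept their side of the threshold, 20 lost a call and 3 gained one. Most of the 774 were uncalled in the main fit, so the 751 say little of the calls. Only Sod1 and Txnrd2, between the lines in phenformin, had a call to lose. Sod1 passed in 9 of the 18 alternatives and Txnrd2 in 7 of 18. Each member has a single probe set, so the dimmest probe set left its values unchanged. No called value changed sign, and 40 uncalled values did. The 36 untested values of the Sod3 line difference ran from -2.97 to -2.43 in water and from -2.67 to -2.51 in phenformin. Sod3 was chosen for this difference in these arrays, and many alternatives leave the difference itself unchanged. These ranges are therefore a description and no support for it. In the comparison of the lines in phenformin, 2 members were called, and 0 after quantile normalization, with the replicate block and with the control probe set covariate; leaving out arrays gave 0 to 2. With the block the adjusted p was 0.0658 for Sod1 and 0.051 for Txnrd2, and the block changed no other member's call; for Slc31a2 it was 0.089. In phenformin against water, 0 members were called in either line, and 1 in each, Sod3, under the filter on level, which tests 7640 genes; leaving out PGC-1alpha water replicate 3 also gave 1 in PGC-1alpha explants. Over all genes, the line comparison in water called 391 genes, 193 with the covariate and 626 with the trended variance, and 247 (without PGC-1alpha water replicate 1) to 349 without an array. In phenformin it called 783, and 346 (without control-line phenformin replicate 2) to 995 without an array. Phenformin in control-line explants called 234, 617 under the filter, 100 with the replicate block, 0 with the covariate and 666 with the trended variance, and 21 (without control-line phenformin replicate 2) to 601 (without control-line water replicate 3). Of these 234, 179 were higher, against 115 of 174 after quantile normalization. In PGC-1alpha explants it called 38, 61 after quantile normalization, 250 under the filter, 10 with the replicate block, 1 with the covariate and 250 with the trended variance, and 3 (without PGC-1alpha phenformin replicate 1) to 77 (without PGC-1alpha water replicate 3). The difference of responses called 0, 1 under the filter, 3 with the trended variance and 0 to 1 without an array. The covariate followed the treatment, so its counts for phenformin against water can hardly tell them apart. The causes were not tested.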
